A study of Homo sapiens with 42 samples.

Results

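The response of HL-60 cells to all-trans retinoic acid (ATRA) given together with the EZH2 inhibitor GSK-343 was set against GSK-343 alone, and 6 of the 42 arrays of the series make up this comparison: 3 of cells given GSK-343 with ATRA and 3 of cells given GSK-343 alone, chosen by their labelled treatment. HL-60 is an established human acute myeloid leukemia line with amplified MYC, so that all arrays describe 1 line. The agents were used at 10 µM GSK-343 and 0.1 µM ATRA, a sub-optimal ATRA dose for this line, for 3 days. Arrays of cells with ATRA and of untreated cells (3 each), of cells with 2.5 µM HKMTI-1-005 with and without ATRA (3 each), and of untransduced cells of the knockdown experiment with and without ATRA (3 each) gave ATRA responses that share no array with this one. Gene expression was measured in biological triplicates on Human Gene 1.0 ST arrays (Affymetrix), and the deposited values are log2 levels after GC-RMA and a correction for batch and date by the authors. Levels of different genes come from different probes and are not set against each other.

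ATRA is a ligand of the retinoic acid receptors, which pair with RXR on DNA and turn from holding their target genes down to activating them once the ligand binds. In myeloid leukemia cells it drives maturation toward granulocyte-like cells. EZH2 is the catalytic subunit of Polycomb repressive complex 2 and writes H3K27 methylation, a mark of silenced genes. GSK-343 blocks that activity by competing with the methyl donor S-adenosylmethionine.

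The 6 arrays had medians of 5.36 to 5.43 over all probe sets. GSK-343 + ATRA replicate 3 lay farthest from its group mean, at a Euclidean distance of 17.8 over 7367 genes, and the other 5 arrays lay at 10.7 to 13.6. MPO, the peroxidase of primary granules and a marker of the myeloid lineage, had log2 levels of 12.87, 12.88 and 13.07 with GSK-343 + ATRA and 13.15, 13.09 and 13.12 with GSK-343, near the top of the array scale in both groups (log2 fold change -0.18, adjusted p = 0.442, not called). CD14, the monocyte co-receptor for lipopolysaccharide, had log2 levels of 4.33, 4.38 and 4.30 with GSK-343 + ATRA, against 4.48, 4.73 and 4.38 with GSK-343, all near the low end of the array scale. Of 18 monocyte and macrophage markers measured, 3 were in the top 40% of genes by mean level, and CD68 alone was called. Summed log2 levels of these 18 markers were 94.1 to 95.7 with GSK-343 + ATRA and 91.8 to 93.6 with GSK-343. Of the markers of other blood lineages, 12 for the red cell and platelet lineages, 12 for eosinophils, basophils or mast cells and 18 for lymphocytes were measured, and 0 were called. In each of these lists only 1 marker was in the top 40% of genes, and the rest could not be called at any change. In bulk RNA, more cells that mature and a higher level per cell cannot be told apart.

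ATRA changed 767 of 7367 genes under GSK-343 (10.4%), of which 247 were higher (3.35%) and 520 lower (7.06%) with GSK-343 + ATRA than with GSK-343. A gene was called at a limma adjusted p of 0.05 or less (Benjamini-Hochberg over 18417 genes) and a fold of at least 1.3, if its mean lay in the top 40% of genes. The arrays of both groups did not overlap in 241 of the 247 genes called higher and in 484 of the 520 called lower. Over all 7367 genes they did not overlap in 14.6% with higher and 21.9% with lower levels. An unpaired t-test with Benjamini-Hochberg adjustment, run on the 6 arrays alone, called 0 genes, and 1030 at an unadjusted p of 0.05. The paper names that t-test for its experiments in general, and for its arrays a false discovery rate taken across all conditions. Large changes were more often rises: at a fold of at least 2, 79 genes were higher and 68 lower. With quantile normalization the split was 347 higher and 399 lower. Since the arrays were 3 per group, the count itself depended on single arrays. It fell to 306 without GSK-343 + ATRA replicate 1, to 370 without GSK-343 + ATRA replicate 2 and to 310 without GSK-343 replicate 2, and it was 1057 without GSK-343 + ATRA replicate 3.

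**Figure D1:**
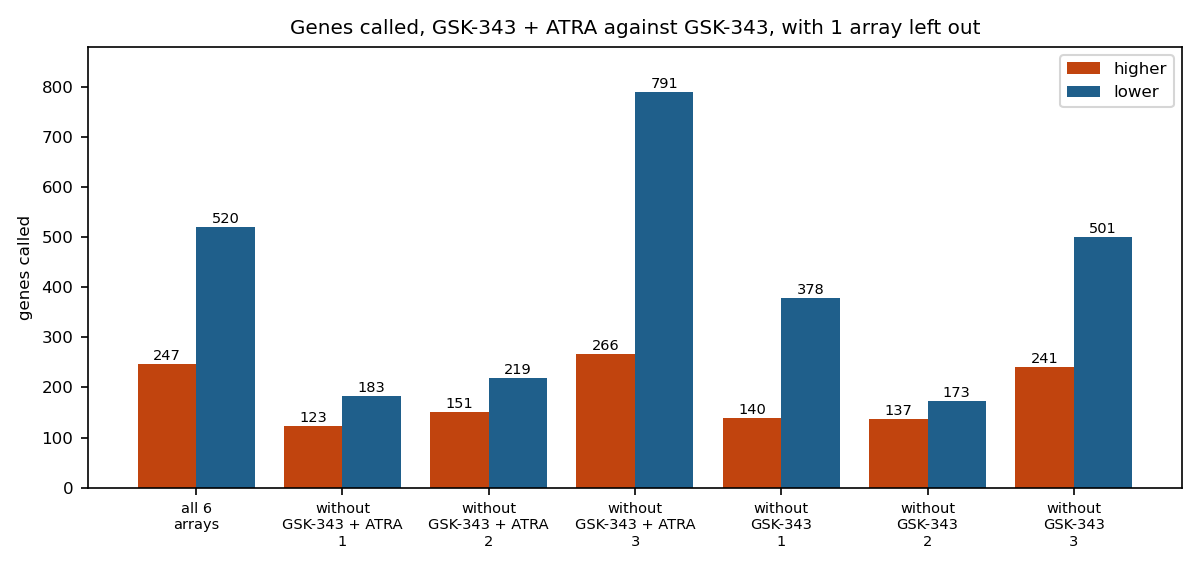
Number of genes called higher (red) and lower (blue) for GSK-343 + ATRA against GSK-343, with all 6 arrays and with each array left out in turn (x axis, replicate number on the last line). The count of lower genes runs between 173 and 791, that of higher genes between 123 and 266.

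The largest rises were in receptors and matrix proteins of the phagocyte surface. CD36, a scavenger receptor for oxidized lipids and thrombospondin, had log2 levels of 10.64, 10.50 and 10.08 with GSK-343 + ATRA, against 6.04, 5.64 and 6.02 with GSK-343. Every array with ATRA was above every array without it, by a log2 fold change of 4.51 (standard error 0.39, adjusted p = 3.82e-09). THBS1, which encodes the CD36 ligand thrombospondin-1, read 11.80, 11.12 and 9.99 with GSK-343 + ATRA and 6.44, 6.18 and 7.03 with GSK-343. Its log2 fold change was 4.42 (standard error 0.42, adjusted p = 2.1e-08). OLR1, a receptor for oxidized low density lipoprotein, read 11.27, 10.42 and 9.02 with GSK-343 + ATRA and 6.05, 4.85 and 6.30 with GSK-343. Its log2 fold change was 4.50 (standard error 0.55, adjusted p = 2.35e-06), and replicate 3 was the lowest of the ATRA arrays in all 3 genes. Of 6 scavenger receptors and thrombospondins in the top 40% of genes, 4 were called higher and 0 lower, against 3.35% and 7.06% of all genes. The fourth was CD68, a lysosomal glycoprotein of phagocytes, at 0.73, a call lost without GSK-343 replicate 2 or GSK-343 + ATRA replicate 2. SCARB1 (-0.53, adjusted p = 0.0648) and SCARB2 (0.16) were not called.

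**Figure D2:**
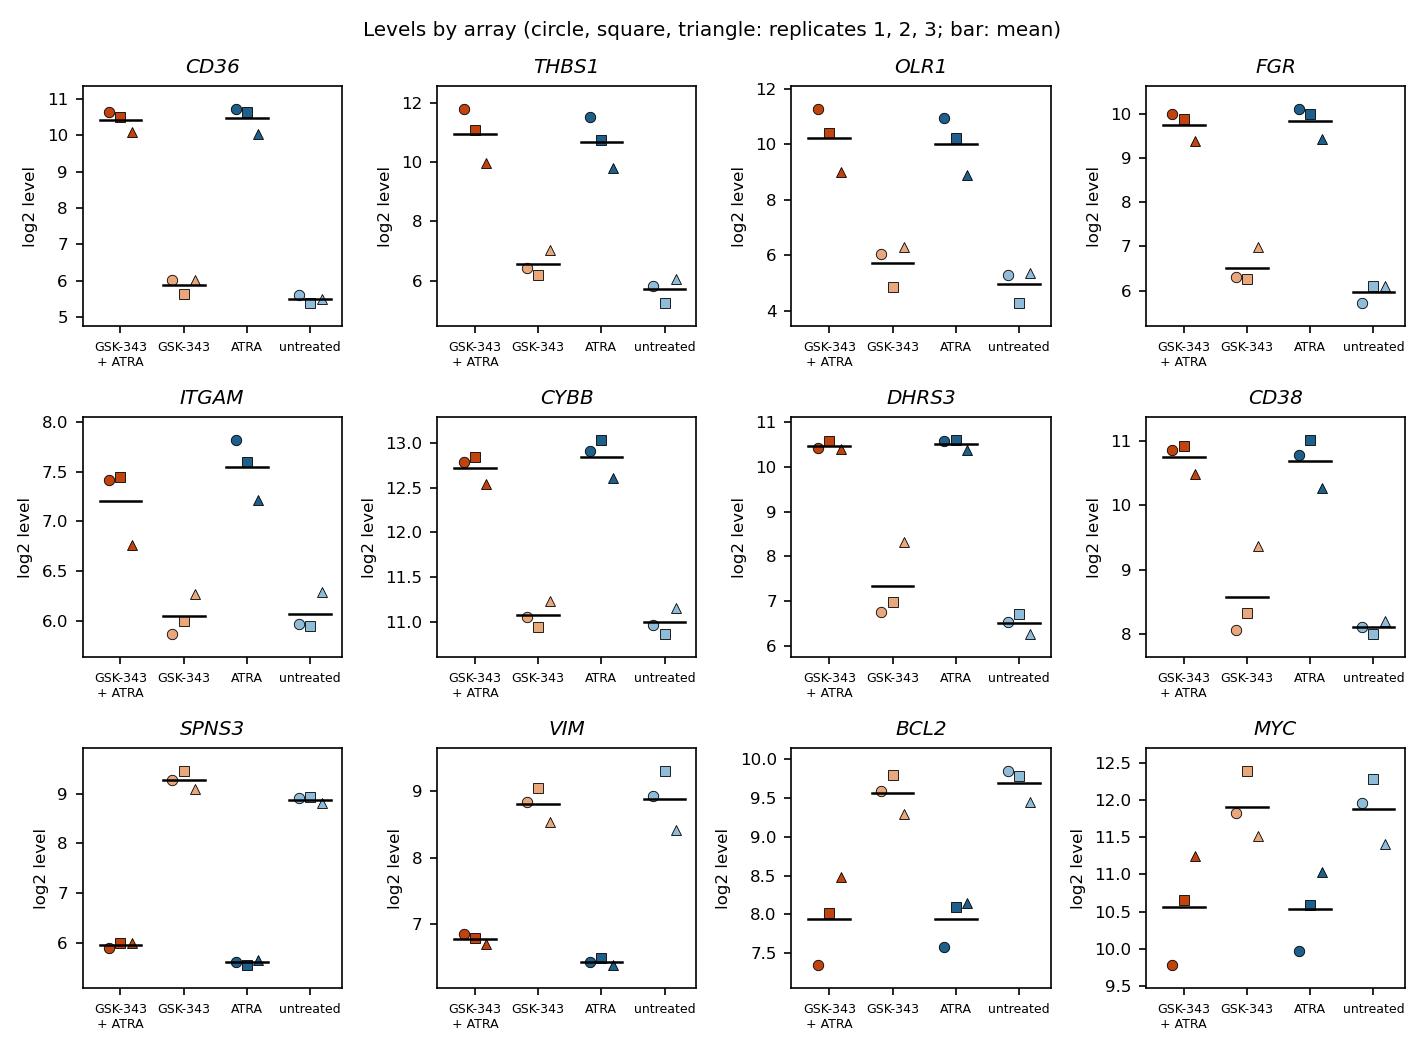
Log2 levels (y axis, a scale of its own in each panel) of 12 genes on the 3 arrays of each of 4 groups (x axis); symbols mark replicate numbers and bars group means. CD36, THBS1, OLR1, FGR, ITGAM, CYBB, DHRS3 and CD38 are higher and SPNS3, VIM, BCL2 and MYC lower on every GSK-343 + ATRA array than on every GSK-343 array.

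Some known retinoid targets rose, while most genes of retinoid metabolism were not called. DHRS3, a retinaldehyde reductase that limits retinoic acid formation, had log2 levels of 10.42, 10.59 and 10.39 with GSK-343 + ATRA, against 6.75, 6.98 and 8.32 with GSK-343. The ATRA arrays lay close together, whereas GSK-343 replicate 3 was well above the other arrays without ATRA. The log2 fold change was 3.12 (standard error 0.29, adjusted p = 9.04e-09). CD38, an NAD glycohydrolase and a classic ATRA-induced antigen of HL-60 cells, read 10.86, 10.92 and 10.49 with GSK-343 + ATRA and 8.07, 8.33 and 9.37 with GSK-343, with replicate 3 again the highest of the arrays without ATRA. Its log2 fold change was 2.17 (adjusted p = 9.47e-06). Of 11 retinoid genes in the top 40%, 5 were called higher and 0 lower, against 3.35% and 7.06% of all genes. The others called were ICAM1 (2.05), an adhesion ligand of leukocyte integrins, NRIP1 (1.45), a corepressor that binds liganded nuclear receptors, and PRAM1 (0.95), an adaptor expressed in maturing granulocytes. Well-known targets of lower mean level also moved: ASB2, a subunit of a ubiquitin ligase, at a log2 fold change of 3.36 (adjusted p = 3.4e-07), and TGM2, tissue transglutaminase, at 2.43 (adjusted p = 7.8e-06), were below the top 40% and so were not among the calls. CEBPE, a transcription factor of late granulocyte maturation, had a value of 0.62 and missed the threshold (adjusted p = 0.0559). CYP26A1, the retinoic acid hydroxylase, was not called (0.08), nor was RARB (0.09), a retinoic acid receptor. The retinol dehydrogenases RDH10 (-0.51), DHRS9 (-0.45) and RDH11 (-0.11), which act in retinoic acid formation, were in the top 40% and not called, and DHRS3 was the called gene of retinoid metabolism. RARA was not analysed here, since no probe set carried its symbol alone.

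Maturation genes of the myeloid lineage followed. ITGAM, the CD11b subunit of the integrin Mac-1 and the usual surface marker of ATRA-treated HL-60 cells, read 7.41, 7.45 and 6.76 with GSK-343 + ATRA and 5.87, 6.00 and 6.27 with GSK-343. The groups did not overlap and the log2 fold change was 1.16 (95% confidence interval 0.59 to 1.74, adjusted p = 0.00806), but the call was lost without GSK-343 + ATRA replicate 1 or replicate 2. Of 11 integrins and ligands in the top 40%, 4 were called higher and 1 lower, against 3.35% and 7.06% of all genes. The lower one was ITGAL (-0.60, adjusted p = 0.0488), a call that 5 of the 6 single-array omissions ended. CYBB, the catalytic subunit of the phagocyte NADPH oxidase, read 12.79, 12.84 and 12.55 with GSK-343 + ATRA and 11.05, 10.94 and 11.23 with GSK-343 (log2 fold change 1.65, adjusted p = 2.84e-05). FGR, a Src family kinase of phagocytes, read 9.99, 9.88 and 9.38 with GSK-343 + ATRA and 6.31, 6.27 and 6.98 with GSK-343 (3.23, adjusted p = 1.01e-09). Of 22 myeloid maturation genes in the top 40%, 9 were called higher and 0 lower, against 3.35% and 7.06% of all genes. Among the 9 were LYN (0.99), a Src family kinase, SIRPA (0.94), the inhibitory receptor for CD47, and the signaling adaptors TYROBP (1.30) and FCER1G (1.11). Leaving out single arrays moved that count between 3 and 11, and TYROBP was lost in 5 of the 6 omissions. The median of the 22 genes was 0.60, against -0.07 for all 7367 genes. SPI1, which encodes the myeloid transcription factor PU.1, had a log2 fold change of 0.55 (adjusted p = 0.0159), a call that 3 of the 6 single-array omissions ended. CSF3R, the G-CSF receptor, was higher on every ATRA array but not called (0.36, adjusted p = 0.5).

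Granule genes held calls in both directions. Primary granules are made in promyelocytes. In the list used for them, 3 of 11 genes in the top 40% were called lower and 1 higher, against 7.06% and 3.35% of all genes. SERPINB10, a serine protease inhibitor of myeloid cells counted in that list, read 8.11, 8.41 and 9.18 with GSK-343 + ATRA and 10.77, 11.03 and 10.24 with GSK-343 (-2.11, adjusted p = 0.00232). The neutrophil proteases CTSG (-1.15) and ELANE (-0.84) were lower, with ELANE at 7.35, 7.31 and 7.34 in GSK-343 + ATRA cells and 8.04, 8.06 and 8.43 in GSK-343 cells. The call for ELANE was lost without GSK-343 replicate 3, and that for CTSG without any of 4 arrays. BPI, a protein that permeabilizes bacteria, was the exception at 1.94 (adjusted p = 0.00661). Among genes of secondary and tertiary granules, which form later, 4 of 6 were higher, against 3.35% of all genes, and 0 lower. They were CHI3L1, a chitinase-like glycoprotein (2.14), HP, haptoglobin (1.80), CYBB and ITGAM, of which the last pair is also counted among the maturation genes. The others of the top 40%, TCN1 (-0.58), a vitamin B12 carrier, and SLPI (-0.62), a protease inhibitor, were not called. Classic late granule genes of lower level were not called either, among them LTF (0.08), lactoferrin, LCN2 (0.22), lipocalin, CAMP (0.13), cathelicidin, and MMP9 (-0.18), a gelatinase, and the median of all 16 measured members was 0.09. CHI3L1 read 13.38, 13.33 and 12.70 with GSK-343 + ATRA and 10.83, 10.65 and 11.50 with GSK-343, with replicate 3 closest to the other group on both sides. Of 25 lysosome genes, 7 were higher, against 3.35% of all genes, and 0 lower. They included the proteases CTSD (1.50) and CTSB (0.81) and PSAP (0.76), the precursor of the saposins.

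Other large rises were in signaling and transport genes. GNG2, a G protein gamma subunit, had log2 levels of 8.70, 8.83 and 8.69 with GSK-343 + ATRA, against 5.23, 5.34 and 5.92 with GSK-343, the rise with the smallest adjusted p of the named genes (3.24, standard error 0.22, adjusted p = 4.06e-12). P2RY13, an ADP receptor, read 7.50, 8.42 and 7.89 with GSK-343 + ATRA and 5.60, 5.27 and 5.63 with GSK-343 (2.44). The chemokines CCL2 (2.26) and CCL20 (2.30) and the chemokine receptor CCR1 (1.81) were higher too. They were 2 of 6 chemokine ligands and, with P2RY13, 2 of 6 chemoattractant receptors in the top 40%, against 3.35% of all genes, with 0 called lower. Uncalled members had values in both directions, such as CCL5 (-0.60), CCL3 (-0.24), CXCR4 (-0.76) and CCR2 (0.83). SLA, an adaptor that dampens antigen receptor and Src kinase signaling, rose by 2.07, and THEMIS2, an adaptor of B cells and macrophages, by 2.27. SLC2A5, the fructose transporter GLUT5, read 10.42, 10.99 and 10.44 with GSK-343 + ATRA and 7.42, 7.62 and 8.89 with GSK-343 (2.64, adjusted p = 5.01e-09). IFI6, an interferon-induced mitochondrial protein, was higher at 2.07. Of 13 interferon response genes in the top 40%, 3 were higher (IFI6, SAMHD1 and MNDA), against 3.35% of all genes, with a list median of -0.02, and TAP1, a peptide transporter of antigen presentation, was lower (-0.53). FCER2, the low-affinity IgE receptor CD23, was higher on all ATRA arrays (10.26, 10.26 and 9.87, against 8.60, 8.43 and 8.19 with GSK-343) yet not called (1.72, adjusted p = 0.0797).

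The largest fall was in SPNS3, a predicted sphingolipid transporter. Its log2 levels were 5.90, 6.00 and 6.00 with GSK-343 + ATRA, against 9.28, 9.45 and 9.09 with GSK-343, with little spread on either side (-3.30, standard error 0.21, adjusted p = 2.94e-12). VIM, the intermediate filament protein vimentin, read 6.85, 6.79 and 6.70 with GSK-343 + ATRA and 8.84, 9.05 and 8.54 with GSK-343 (-2.03, adjusted p = 6.9e-06). ACY3, an aminoacylase (-2.16), KCNA3, a voltage-gated potassium channel (-2.04), BMP8B, a bone morphogenetic protein (-1.92), and SEMA3A, a secreted semaphorin (-1.89), followed. In these 4 genes the ATRA array nearest to the arrays without ATRA was replicate 3. HGF, hepatocyte growth factor, was lower by a log2 fold change of -1.77, and IRF8, a transcription factor of monocyte and dendritic cell fate, of -1.33. The IRF8 call was lost in 3 of the 6 single-array omissions.

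MYC and a share of its growth-related genes were lower, with a wide spread over replicates. MYC had log2 levels of 9.78, 10.65 and 11.25 with GSK-343 + ATRA, against 11.83, 12.38 and 11.51 with GSK-343. The groups did not overlap, but the highest ATRA array and the lowest array without ATRA, both replicate 3, were close. The log2 fold change was -1.35 (standard error 0.29, adjusted p = 0.00353), and the call was lost without GSK-343 + ATRA replicate 1 or GSK-343 replicate 2 (highest adjusted p = 0.0734). Of 33 genes of MYC and ribosome biogenesis in the top 40%, 13 were called lower, against 7.06% of all genes, and 0 higher, with a median of -0.49. They included POLR1B, a subunit of RNA polymerase I (-1.17), WDR12, a factor in large ribosomal subunit maturation (-0.96), LYAR, a nucleolar growth regulator (-0.95), and DKC1, the pseudouridine synthase dyskerin (-0.81). WDR12 read 9.62, 9.76 and 10.20 with GSK-343 + ATRA and 10.90, 10.94 and 10.61 with GSK-343, and was called whichever array was left out. The count of lower genes in this list ran between 2 and 23 when single arrays were left out. In the same arrays, cell division and DNA replication genes were mostly not called: 1 of 29 and 0 of 31 were lower, against 7.06% of all genes, and 0 higher. The 1 call was PTTG1, securin (-0.42), which 5 of the 6 single-array omissions ended.

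Lipid synthesis genes were also among the falls. Of 24 sterol and fatty acid synthesis genes in the top 40%, 8 were called lower, against 7.06% of all genes, and 0 higher, with a median of -0.67. INSIG1, the sterol sensor that retains SREBP in the endoplasmic reticulum and is itself an SREBP target, read 7.27, 7.89 and 8.56 with GSK-343 + ATRA and 9.65, 9.91 and 9.30 with GSK-343 (-1.71, adjusted p = 0.000562). FADS1, a fatty acid desaturase, was lower at -1.73, SCD, stearoyl-CoA desaturase, at -1.19, CYP51A1, lanosterol demethylase, at -1.18 and HMGCS1, HMG-CoA synthase, at -1.03. The remaining calls were LSS (-0.90), FASN (-0.77) and ACACA (-0.68). This count ran between 2 and 13 when single arrays were left out. SREBF1 and SREBF2, which encode the SREBP factors, had values of -0.23 and -0.44 and were not called.

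Survival and growth factor genes moved in both directions. BCL2, an inhibitor of apoptosis, read 7.35, 8.02 and 8.48 with GSK-343 + ATRA and 9.59, 9.79 and 9.30 with GSK-343 (-1.61, adjusted p = 0.000124). Its relatives BCL2A1 (1.45), BCL2L1 (0.83) and MCL1 (0.40), which also restrain apoptosis, were higher. Thus 3 of 13 genes of the family were higher and 1 lower, against 3.35% and 7.06% of all genes. The MCL1 call was lost in 5 of the 6 single-array omissions. CDK6, a G1 kinase that holds back myeloid maturation, was lower at -1.31 (adjusted p = 7.91e-05), and CCNE2, a G1/S cyclin, was higher at 1.01. They were the calls among 15 G1 cyclin, kinase and inhibitor genes in the top 40% (13.3%), near the 10.4% of all genes. MYB, a progenitor transcription factor, was lower at -1.01 and FLT3, a progenitor cytokine receptor, at -0.97. MYB was the 1 call among 10 stem and progenitor regulators in the top 40%, near the 10.4% of all genes. Of 15 cytokine receptors in the top 40%, 2 were called higher and 1, FLT3, lower, against 3.35% and 7.06% of all genes. The CCNE2 and FLT3 calls were lost in 3 of the 6 omissions, and that of MYB in 2, with a value of -0.59 at its smallest (highest adjusted p = 0.209). Glycolysis genes were mixed, with PKM (0.49) and SLC2A5 higher and ALDOC (-1.40), HK2 (-0.98) and PFKM (-0.92) lower. These were 2 and 3 of 20 glucose uptake and glycolysis genes in the top 40%, against 3.35% and 7.06% of all genes. HK2, with LRP12 the called gene nearest to the threshold (adjusted p = 0.0497 for both), was lost without any of 4 arrays. SEPTIN6 (adjusted p = 0.0502) and MAN1A1 (adjusted p = 0.0503) lay just outside.

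**Figure D3:**
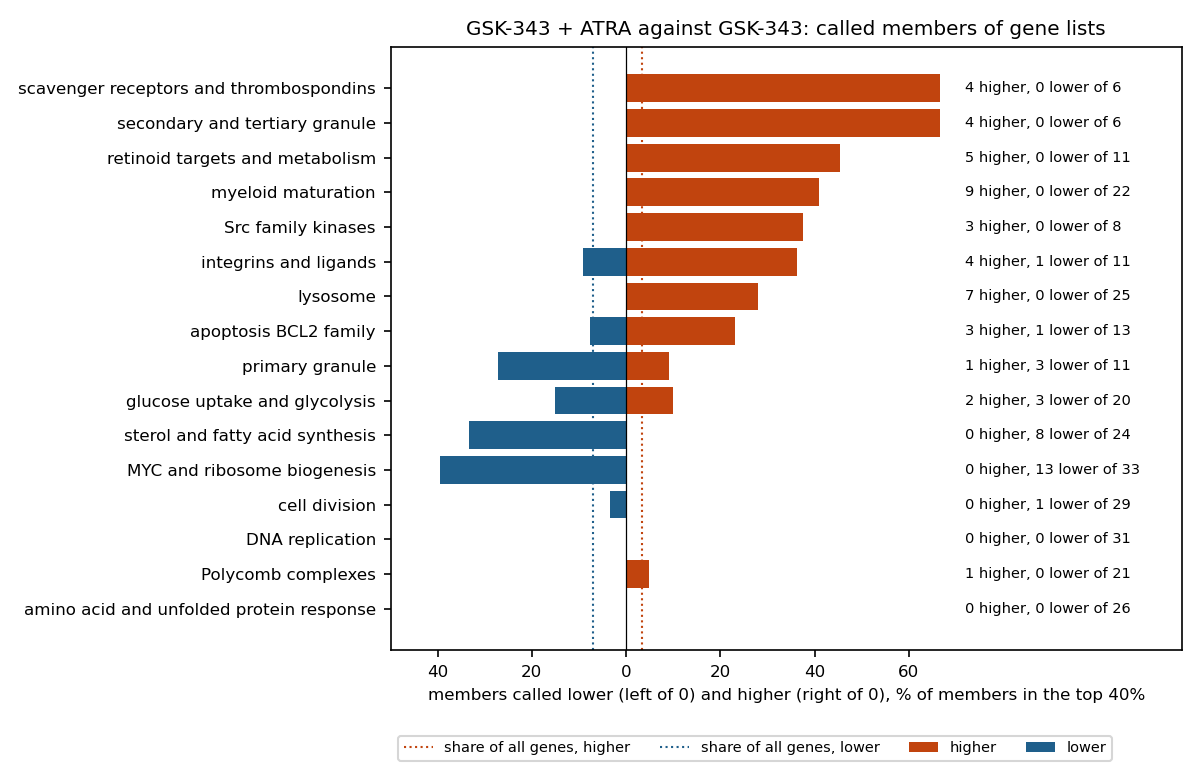
Share of the members of 16 gene lists called higher (red, right of 0) and lower (blue, left of 0) for GSK-343 + ATRA against GSK-343, as percent of members in the top 40% of genes (x axis); dotted lines mark the shares over all 7367 genes, 3.35% higher and 7.06% lower. Scavenger receptor, late granule, retinoid, maturation and lysosome lists hold only rises among their calls, and the MYC and ribosome and lipid synthesis lists only falls.

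EZH2, the target of GSK-343, was not called: it read 9.71, 9.61 and 9.77 with GSK-343 + ATRA and 9.59, 9.84 and 9.78 with GSK-343 (-0.04, 95% confidence interval -0.35 to 0.28). SUZ12, a PRC2 subunit, had a value of -0.01. Of 21 Polycomb genes in the top 40%, 1 was called, against 10.4% of all genes: PCGF2, a PRC1 subunit (0.55), whose call was lost in 3 of the 6 single-array omissions. Of 37 developmental Polycomb target genes measured, 2 were in the top 40%, and both were lower: WT1 (-0.87), a zinc finger factor overexpressed in leukemia, whose call was lost in 3 of the 6 single-array omissions, and TWIST1 (-0.55), a mesodermal factor. Members below the top 40% had values on both sides, with LHX2 at 1.10 (adjusted p = 3.98e-05) and GATA6 at 0.55 (adjusted p = 0.000144) against HAND2 at -0.54 (adjusted p = 0.00299), and the median of the 37 genes was 0.03. Of 21 genes of H3K9 methylation and its cofactors, 2 were called (9.52%), near the 10.4% of all genes. They were KDM1A, the histone demethylase LSD1 (-0.69), and SETDB2 (-0.64), both lower, each a call that 3 of the 6 single-array omissions ended. EHMT2, an H3K9 methyltransferase, had a value of -0.43 and EHMT1, its partner, of -0.08, neither called.

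Promoter sequence is shown for called genes with large changes whose promoters carry either of 2 motifs. These are a purine-rich motif of the kind PU.1 binds and the E-box that MYC and related factors bind. Not every chromosome was used in this choice, and a match had to lie before the start site. Genes with larger changes that carry either motif may therefore be missing. The capitals mark the motif each gene was chosen for, and the WT1-AS stretch also holds the purine-rich motif, in lower case. Genes called higher:
GNG2: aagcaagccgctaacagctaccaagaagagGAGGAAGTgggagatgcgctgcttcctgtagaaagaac
MYBPH: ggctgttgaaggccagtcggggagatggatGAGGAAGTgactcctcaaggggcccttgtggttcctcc
SAMSN1: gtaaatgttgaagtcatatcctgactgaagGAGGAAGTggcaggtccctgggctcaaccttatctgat
BCL2A1: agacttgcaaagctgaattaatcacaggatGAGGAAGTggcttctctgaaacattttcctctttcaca
Genes called lower:
INSIG1: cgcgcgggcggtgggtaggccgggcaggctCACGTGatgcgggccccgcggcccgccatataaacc
WT1-AS: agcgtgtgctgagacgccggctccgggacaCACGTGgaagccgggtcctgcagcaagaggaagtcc
TAF4B: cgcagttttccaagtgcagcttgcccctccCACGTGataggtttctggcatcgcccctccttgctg
MTSS2: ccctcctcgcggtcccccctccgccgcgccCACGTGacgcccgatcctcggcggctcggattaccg
All are RefSeq promoter sequence of GRCh38.p14, 5′ to 3′ along the gene's strand, and lie before the start site. GNG2 is at chr14:51860514-51860581 (+), MYBPH at chr1:203175961-203176028 (-), SAMSN1 at chr21:14546351-14546418 (-) and BCL2A1 at chr15:79971338-79971405 (-). INSIG1 is at chr7:155297793-155297858 (+), WT1-AS at chr11:32435293-32435358 (+), TAF4B at chr18:26226232-26226297 (+) and MTSS2 at chr16:70686062-70686127 (-).

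The windows searched run from 250 bases before to 50 bases after each start site, and 200 of the genes called higher and 426 of those called lower had at least 1 window. GAGGAAGT, on either strand, was in a window of 20 of the 200 genes called higher (10.0%), 16 of the 426 called lower (3.76%) and 215 of 5489 uncalled genes of the top 40% (3.92%). CACGTG, which reads the same on both strands, was in a window of 12 of the 200 genes called higher (6.00%), 74 of the 426 called lower (17.4%) and 757 of the 5489 uncalled genes (13.8%). Of all 35116 promoter windows, 2.59% held GAGGAAGT and 7.26% CACGTG. Each motif was counted on its own, whether or not a window also held the other. A retinoid response element of the direct repeat type, with 5 bases between its half-sites and searched on both strands, was in 0.0883% of all windows and in a window of 1 of the 200 genes called higher. Among the genes shown, MYBPH, a myosin-binding protein, rose by 1.74, SAMSN1, an adaptor of hematopoietic cells, by 1.58 and BCL2A1 by 1.45. WT1-AS, the antisense transcript of WT1, was lower at -1.66, TAF4B, a TFIID subunit, at -1.50 and MTSS2, a regulator of actin at membranes, at -1.45. A match is a description of the letters and not a measured site.

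Most genes called under GSK-343 were also called for ATRA without an inhibitor. ATRA changed 963 genes against untreated cells (13.1%), 385 higher (5.23%) and 578 lower (7.85%). Of the genes called under GSK-343, 230 of 247 higher genes (93.1%) and 394 of 520 lower genes (75.8%) were also called without an inhibitor, which were 59.7% of the 385 and 68.2% of the 578. In 0 genes did the calls oppose each other, and the 17 higher and 126 lower genes called only under GSK-343 all had the same sign in the other comparison. The comparisons share no array, but same-numbered arrays deviated from their group means together, with correlations of 0.71, 0.02 and 0.38 between GSK-343 + ATRA and ATRA and of 0.43, 0.47 and 0.45 between GSK-343 and untreated cells, and the comparisons are not taken as independent. Across 7367 genes the log2 fold changes had a Pearson r of 0.942 (Spearman rho 0.891), given as a description, since genes are not independent replicates.

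**Figure D4:**
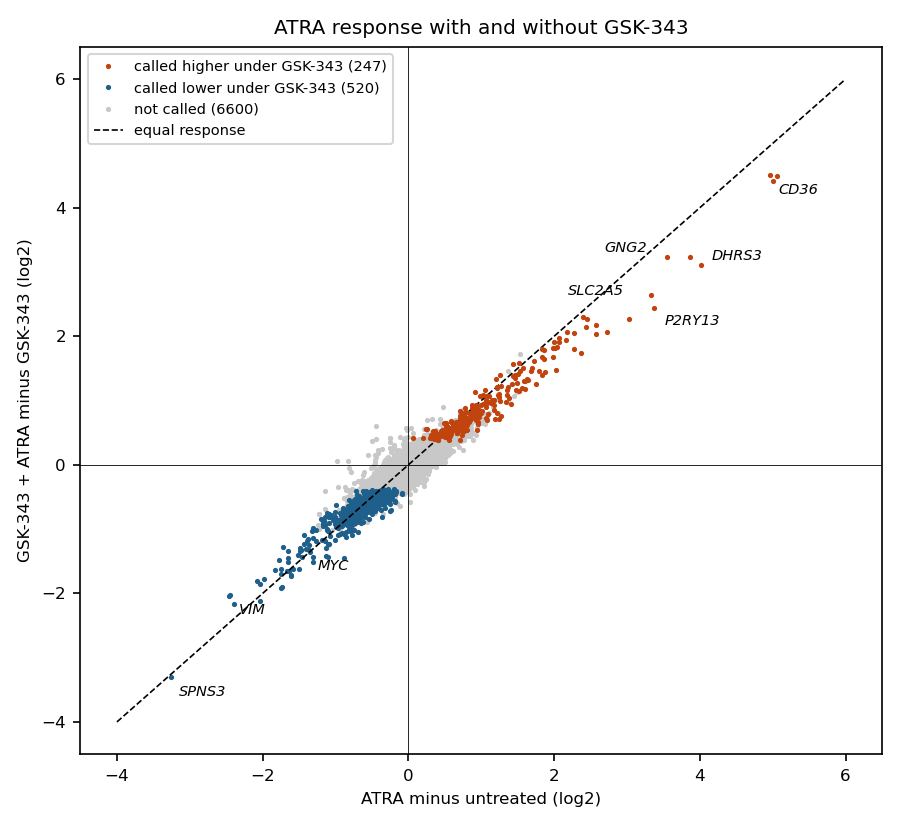
Log2 fold change of each of 7367 genes for GSK-343 + ATRA against GSK-343 (y axis) and for ATRA against untreated cells (x axis); colours mark calls under GSK-343 and the dashed line equal responses. Rises lie mostly below the line, with 188 of the 247 genes called higher smaller under GSK-343, CD36, DHRS3, SLC2A5 and P2RY13 among them, and SPNS3 is close to it.

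The test of the difference between both responses called 0 genes in limma, with a lowest adjusted p of 1.00. At an unadjusted p of 0.05, 16 of 7367 genes differed (0.217%), 4 with a more positive and 12 with a more negative response under GSK-343, a share below the p threshold of 0.05 itself. The precision was limited. Over the 247 genes called higher under GSK-343 the 95% confidence interval of the difference had a median half-width of 0.54 (log2), and it lay within 1 of 0 in 204 of them (82.6%). For the 520 lower genes the half-width was 0.45, and 495 intervals lay within 1 of 0 (95.2%). CD36 had log2 fold changes of 4.51 under GSK-343 and 4.96 without it, a difference of -0.45 (95% confidence interval -1.59 to 0.68). ITGAM had 1.16 and 1.48, a difference of -0.32 (-1.13 to 0.49), and MYC -1.35 in each, a difference of 0.00 (-0.84 to 0.85).

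Among the genes of low unadjusted p, DHRS3 had a difference of -0.90 (95% confidence interval -1.72 to -0.07, unadjusted p = 0.0336), and -0.42 without GSK-343 replicate 3. In cells without an inhibitor DHRS3 read 10.58, 10.59 and 10.38 with ATRA and 6.52, 6.72 and 6.27 untreated. The ATRA arrays thus reached the same level in both settings. All GSK-343 arrays stood above all untreated arrays, with replicate 3 the highest, at 8.32. For SLC2A5, GSK-343 replicate 3 was again the highest, at 8.89, with the untreated arrays at 7.26, 7.46 and 7.21. Its other GSK-343 arrays were not both above the untreated arrays. NTN1, the guidance cue netrin-1, had 7.53, 7.51 and 7.50 with GSK-343 + ATRA and 7.28, 6.96 and 7.13 with GSK-343, a rise of 0.39 against 0.71 without an inhibitor (difference -0.32, unadjusted p = 0.0175). LSM7, a component of the U6 snRNA ring, had -0.71 under GSK-343 and -0.24 without it (difference -0.47, unadjusted p = 0.0213). RPL19, a ribosomal protein, leaned the other way at 0.33 and 0.01 (difference 0.32, unadjusted p = 0.0415). MLLT3, a super elongation complex partner that maintains stem cells, was below the top 40% of genes. It read 5.14, 5.55 and 6.16 with GSK-343 + ATRA and 6.78, 7.29 and 6.57 with GSK-343 (-1.26, adjusted p = 1.17e-05), against 5.49, 5.65 and 5.94 with ATRA and 6.23, 6.22 and 5.89 untreated (-0.42, adjusted p = 0.14). All 3 GSK-343 arrays were above all untreated arrays, and the difference of -0.84 had an unadjusted p of 0.00146 and was not called. GATA2, a progenitor transcription factor also below the top 40%, read 6.25, 6.21 and 6.25 with GSK-343 + ATRA and 6.94, 7.26 and 7.22 with GSK-343 (-0.90, adjusted p = 0.00332). Its values were also negative without an inhibitor (-0.61, difference -0.29) and under HKMTI-1-005 (-0.98).

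The ATRA genes of untransduced cells, measured on arrays of the knockdown experiment, gave an outside list on which to compare sizes. There ATRA changed 157 genes (2.13%), 98 higher (1.33%) and 59 lower (0.801%). Under GSK-343 all 98 moved the same way and 71 were called higher, and 58 of the 59 moved the same way and 39 were called lower. The 98 genes had a median log2 fold change of 0.78 under GSK-343, 0.99 under HKMTI-1-005 and 1.01 without an inhibitor. In 93 of the 98 the response under GSK-343 was the smaller (median difference -0.20), and this difference ran between -0.28 and -0.15 when each of the 12 arrays was left out, -0.15 being the value without GSK-343 replicate 3, where 79 of the 98 were smaller. The 59 lower genes had medians of -0.68 under GSK-343 and -0.70 without an inhibitor, and 42 were smaller under GSK-343. These are descriptions of genes that share arrays, with no test.

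On the scale of the untreated mean, the 98 genes had median shifts of 0.93, 0.95 and 0.95 on the GSK-343 + ATRA arrays and of 0.05, 0.12 and 0.30 on the GSK-343 arrays. The shifts were 1.11, 1.06 and 0.84 on the ATRA arrays and 0.02, 0.00 and -0.03 on the untreated arrays. The HKMTI-1-005 + ATRA arrays were at 1.24, 1.10 and 1.06 and the HKMTI-1-005 arrays at 0.05, 0.14 and 0.10. All arrays of either inhibitor alone were thus above all untreated arrays, with GSK-343 replicate 3 the highest. The untreated arrays set the mean used here and so lie near 0 by construction. At the closest, GSK-343 replicate 1 at 0.05 stood against an untreated array at 0.02. The GSK-343 + ATRA arrays lay within the range of the ATRA arrays and below all HKMTI-1-005 + ATRA arrays. For the 59 lower genes the GSK-343 + ATRA arrays were at -0.75, -0.68 and -0.63, and the GSK-343 arrays at -0.01, 0.12 and -0.01.

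**Figure D5:**
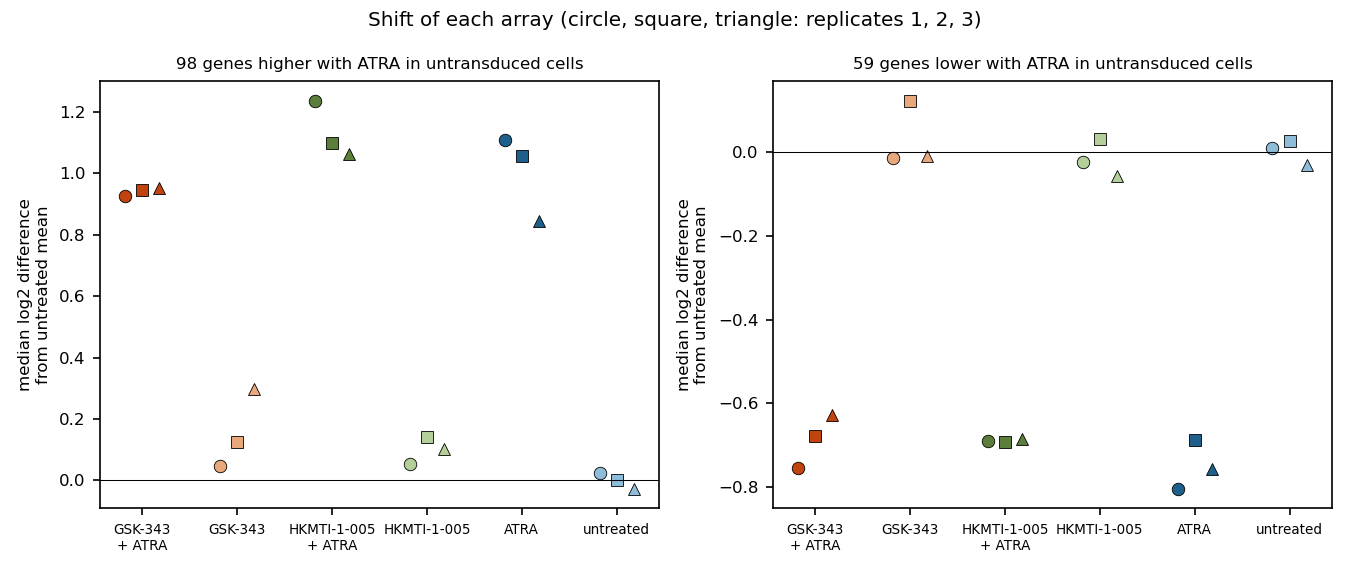
Median log2 difference from the mean of the untreated arrays (y axis) over 98 genes higher (left) and 59 genes lower (right) with ATRA in untransduced cells, for each array of 6 groups (x axis); symbols mark replicate numbers. For the 98 genes the GSK-343 arrays lie at 0.05 to 0.30, above the untreated arrays, and GSK-343 + ATRA arrays at 0.93 to 0.95.

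Under HKMTI-1-005, an inhibitor of EZH2 and of the H3K9 methyltransferase EHMT2 given at 2.5 µM and not at 10 µM, ATRA changed 298 genes (4.05%), 175 higher (2.38%) and 123 lower (1.67%). Of the genes called under GSK-343, 120 higher genes (48.6%) and 89 lower genes (17.1%) were also called there, 68.6% of the 175 and 72.4% of the 123. The lower genes differed most in number. In the MYC and ribosome biogenesis list 13 of 33 were lower under GSK-343 and 0 under HKMTI-1-005, with medians of -0.49 and -0.21, and in lipid synthesis 8 of 24 and 0, with medians of -0.67 and -0.21. ATRA without an inhibitor lowered 12 and 10 members of these lists (medians -0.44 and -0.66), and ATRA in untransduced cells 0 and 0 (medians -0.17 and 0.01). SCD had log2 fold changes of -1.19 under GSK-343 and -0.12 under HKMTI-1-005, a difference of -1.07 (95% confidence interval -1.81 to -0.33) that did not pass the adjusted test. That test called 0 genes of the top 40% in limma. Of 7367 genes, 283 had an unadjusted p under 0.05 (3.84%), 50 with a more positive and 233 with a more negative response under GSK-343. This share also lies below the p threshold of 0.05, and neither it nor the split is read as a result. CHPT1, a phosphatidylcholine-synthesis enzyme, had the lowest adjusted p (0.154), with -0.57 under GSK-343 and 0.16 under HKMTI-1-005. Its adjusted p was 0.0175 without HKMTI-1-005 + ATRA replicate 3 and 0.0339 without GSK-343 + ATRA replicate 3. IL4R, the interleukin-4 receptor, had 1.34 and 0.22 (difference 1.12, adjusted p = 0.629).

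Without the expression filter, 3 genes passed, all below the top 40% and named here because they passed. VSIG4, a complement receptor of macrophages, was raised by 1.48 under GSK-343 and by 3.60 under HKMTI-1-005 (difference -2.12, adjusted p = 0.00154). SEMG1, a semenogelin, had -0.89 and -2.36 (difference 1.47, adjusted p = 0.00154), and MACC1, a transcriptional regulator, 0.05 and 0.79 (difference -0.74, adjusted p = 0.0104).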

How the data were processed

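The series holds 42 HL-60 samples, 1 array each. GC-RMA and removal of batch and date effects were done by the authors in Partek; the deposited values were taken as log2 from their range (3.18 to 14.5). Software versions and batch names were not given in the sources used here, and no batch term was fitted. Of 33297 probe sets, 19460 carried 1 symbol in the platform annotation, and the brightest stood for each of 18417 genes. Means of 14 groups were fitted with limma 3.58.1 in R 4.3.3 (28 residual degrees of freedom), with Benjamini-Hochberg adjustment over all genes. Differences between responses were interaction contrasts. The members, the 37 gene lists and the tests were chosen with earlier results of these data known. Named genes were the 15 largest rises and 15 largest falls without overlap, up to 4 called members of a list (all where 5 or fewer), genes the paper names, those nearest the thresholds and, for each interaction, up to 5 a direction of lowest p. MYBPH, SAMSN1, TAF4B, MTSS2, VSIG4, SEMG1, MACC1 and list members beyond 4 were named after their values were seen. Precision is limited by having 3 arrays per group, all from cultures of 1 line. Limma p-values and intervals rest on the spread within all 14 groups, knockdown arrays included, and not on the GSK-343 cultures alone. The median standard deviation within a group was 0.12 for GSK-343 and 0.14 for GSK-343 + ATRA. It was highest, at 0.23, for cells with a non-targeting shRNA. The code was tested on simulated data. Alternatives changed the block, arrays, filter, fold, variance model, scaling, probe sets and test.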

Additional observations from a re-analysis of the deposited data

Results flagged for a closer look

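SMIM20, a small mitochondrial membrane protein, had log2 levels of 7.77, 8.04 and 8.24 with GSK-343 + ATRA, against 8.30, 8.47 and 8.26 with GSK-343 (log2 fold change -0.33, not called). Under HKMTI-1-005 it read 8.22, 8.26 and 8.26 with ATRA and 7.74, 7.89 and 7.98 without it (0.38). It was picked out because every array moved down under the first inhibitor and up under the second. The difference of -0.70 (95% confidence interval -1.08 to -0.33) had an unadjusted p of 0.000578 and did not pass after adjustment (adjusted p = 0.484, limma). The doses of the inhibitors differ.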

How the results depend on the processing

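The 6 arrays allow few firm calls near the thresholds: of 102 named genes called, 56 were called whichever array was left out. Leaving out single arrays gave 306 to 1057 genes under GSK-343, 433 to 1075 without an inhibitor, 168 to 272 under HKMTI-1-005, 90 to 149 in untransduced cells, 0 to 0 for the GSK-343 by ATRA interaction and 0 to 1 for the difference between the inhibitors. At 2-fold there were 147, 197, 100 and 67 genes in the first 4 comparisons. The unpaired t-test with Benjamini-Hochberg adjustment called 0, 8, 13 and 0, and unadjusted 1030, 1345, 715 and 344. ATRA under GSK-343 gave 1077 genes from the 18 inhibitor arrays (387 higher and 690 lower), 1118 without the filter and 514 with array medians centred. HKMTI-1-005 gave 568 genes from the 18 inhibitor arrays, 452 from its own 6 and 499 without the filter. Untransduced cells gave 45, 243 and 102 from their own 6 arrays, without the filter and with array medians centred. The difference between the inhibitors gave 3 without the filter. Quantile normalization gave 347 higher and 399 lower under GSK-343, and only the 6 arrays compared 314 and 367.

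Same-numbered arrays of GSK-343 + ATRA and GSK-343 deviated together with correlations of 0.22, -0.04 and -0.17, so the numbers were not taken as pairs. With the replicate block 712 genes were called, 694 of them among the 767, and only replicate 1 correlated best with its own number. Same-numbered arrays of GSK-343 and untreated cells had correlations of 0.43, 0.47 and 0.45, and with the block the interaction still called 0 genes.

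Changes of sign were confined to 5 named genes that were not called. Quantile normalization gave 0.0301 for EZH2, 0.0344 for GNAQ, a G protein alpha subunit, 0.0531 for KDM5B, an H3K4 demethylase, and 0.0248 for SUZ12, and the mean of probe sets gave 2.0e-05 for GNAQ. Without single arrays EHMT1 ran from -0.21 to 0.0246, EZH2 from -0.11 to 0.0129, KDM5B from -0.089 to 0.0598 and SUZ12 from -0.0409 to 0.0435. The cause was not tested. The omissions for the outside list and for interaction values were added after seeing the data. With quantile normalization the median difference of the 98 genes was -0.19, and with medians centred -0.20.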
